A study of Mus musculus with 6 samples.

Results

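Claudins and the other membrane and scaffold proteins of epithelial junctions were measured at the transcript level in single tumour cells from the lungs of mice. The members are 7 genes chosen by symbol, Cldn3, Cldn4, Cldn7, Cldn18, Ocln, Tjp1 and Cdh1, and all 7 were found among the 31055 features of the count matrix. They were read in 12183 of 16017 deposited cells, those with at least 500 detected genes and at most 20% of their unique molecular identifiers (UMIs, 1 per captured transcript copy) from mitochondrial genes.

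The cells came from 6 mice that all carried the Lkb1XTR/XTR alleles and a Rosa26LSL-tdTomato reporter, and in which intratracheal Lenti-Cre had started tumours 20 weeks earlier. All 6 also shared a further engineered allele that is not reported here, so the Lkb1 trap was not the only engineered change in the tumours. XTR is a gene trap in the first intron of Lkb1, the gene listed in the matrix as Stk11, and the trap ends in eGFP. Cre turns the trap on in the infected cells, and the tamoxifen-activated recombinase FLPo-ERT2 removes it. The 3 Restored mice, 2 male and 1 female, carried FLPo-ERT2 and received tamoxifen. The 3 NonRestored mice were 1 male without FLPo-ERT2 given tamoxifen, 1 male without it given vehicle, and 1 female with FLPo-ERT2 given vehicle. Treatment lasted 2 weeks. Live tdTomato-positive cells without the blood, endothelial and macrophage surface markers used in the sort were loaded for 3′ sequencing. One matrix held the cells of all mice, and which mouse a cell came from was not analysed here, so the matrix was treated as 1 sample. No test between Restored and NonRestored mice was made and no p-value is given. The intervals below are 95% intervals that cover counting error only, with no replicate check, and cells of 1 tumour or clone are not independent.

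Tight junctions seal the space between epithelial cells, and claudins are the transmembrane proteins that form their strands and set which ions and molecules pass. Occludin sits in the same strands, and ZO-1, the product of Tjp1, ties strand proteins to actin, while E-cadherin, the product of Cdh1, holds neighbouring cells together at the adherens junction beneath. In the alveolus, Cldn18 is the typical claudin of the flat type I (ATI) cells that exchange gas. Cldn3 is typical of the surfactant-making type II (ATII) cells, and Cldn4 is known for its induction in injured alveolar epithelium.

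The cells were compared in gates set on UMIs per 10000 UMIs of a cell. The ATII gate (Sftpc at least 500, Hopx under 2, Krt8 plus Krt18 under 50) held 6975 cells, 57.3% of the filtered cells. The ATI gate (Hopx at least 15, Krt8 plus Krt18 under 50) held 956 cells, 7.85%. The keratin-high gate (Krt8 plus Krt18 at least 50) held 1183 cells, 9.71%. A further 3069 cells, 25.2%, fell in no gate. The gate names were checked against marker lists. Each of 10 ATII markers peaked in the ATII gate, with a summed level of 598 UMIs per 10000 against 111 in the ATI gate and 120 in the keratin-high gate. The 10 ATI markers summed to 123 in the ATI gate, where each of them peaked, against 20.4 and 49.6. Of 8 markers of the transitional alveolar state, 6 were highest in the keratin-high gate and the other two, Cdkn1a and Ctgf, in the ATI gate. The ATI gate still held Sftpc at 475 UMIs per 10000, so its cells are not free of surfactant transcripts. Markers of endothelium, fibroblasts and immune cells summed to at most 0.0337, 0.270 and 0.0393 UMIs per 10000 in any of the 3 gates. The 4 club cell markers summed to 1.21 in ATII, 0.440 in ATI and 0.165 in keratin-high cells. The 4 ciliated cell markers summed to 0.301, 1.51 and 2.90, with 3 of them highest in the ATI gate and 1, Tppp3, in the keratin-high gate. Tppp3 made up most of each sum, at 0.241, 1.37 and 2.86. Dynlrb2 stood at 0.0475, 0.111 and 0.0303, Foxj1 at 0.0118, 0.0120 and 0.00359, and Ccdc153 at no more than 0.0180. These marker genes, named after their values were seen, were not tested for a part in the results.

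Median depth was 19348 UMIs per cell over all filtered cells, with a range of 671 to 125731. It was 21660 in the ATII gate, 11796.5 in the ATI gate and 23490 in the keratin-high gate. No doublet caller was run on the deposited cells. Cells marked as immune (80 cells), fibroblast (239) or endothelial (126) by their own genes served as types that should lack most of these epithelial genes. Their cut-offs were chosen after values were seen.

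The promoters of the claudin genes are shown because the gates differ most at 1 of an adjacent pair of claudin genes and because Cldn18 has alternative starts. On GRCm38, Cldn3 (ENSMUSG00000070473) spans chr5:134986214-134987472 on the plus strand and Cldn4 (ENSMUSG00000047501) spans chr5:134945119-134946934 on the minus strand. Their starts lie 39280 bases apart and point away from each other, with 0 protein-coding genes between them. Cldn7 (ENSMUSG00000018569) lies at chr11:69964779-69967885 on the plus strand. Cldn18 (ENSMUSG00000032473) lies at chr9:99689461-99717267 on the minus strand, with starts 7204 bases apart at alternative first exons, which counts of 3′ ends do not distinguish. The 250 bases before a start come from RefSeq on GRCm38.p6, which had entries for 6 of the 7 members. Each is printed 5′ to 3′ on the strand of its gene and ends at the base before the start. Capitals mark matches, on either strand, to TGANTCA (AP-1), GGAATG (TEAD) or TTNNGNAA (C/EBP).
Cldn4, chr5:134946935-134947184, minus strand: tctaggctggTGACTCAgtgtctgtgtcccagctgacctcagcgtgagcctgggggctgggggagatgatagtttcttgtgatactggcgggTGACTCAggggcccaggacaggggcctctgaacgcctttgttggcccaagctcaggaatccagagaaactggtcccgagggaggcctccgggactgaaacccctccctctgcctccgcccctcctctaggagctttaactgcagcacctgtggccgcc
Cldn3, chr5:134985964-134986213, plus strand: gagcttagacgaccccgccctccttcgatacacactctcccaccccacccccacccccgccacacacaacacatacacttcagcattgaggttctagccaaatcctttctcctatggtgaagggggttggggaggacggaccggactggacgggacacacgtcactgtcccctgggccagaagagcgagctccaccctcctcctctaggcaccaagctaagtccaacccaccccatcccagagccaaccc
Cldn7, chr11:69964529-69964778, plus strand: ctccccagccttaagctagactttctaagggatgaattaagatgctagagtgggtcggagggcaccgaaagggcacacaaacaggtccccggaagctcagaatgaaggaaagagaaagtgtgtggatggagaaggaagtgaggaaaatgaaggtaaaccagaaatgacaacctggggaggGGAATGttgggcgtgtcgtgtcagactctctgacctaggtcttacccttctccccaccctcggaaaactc
Cldn18 upstream start, chr9:99717268-99717517, minus strand: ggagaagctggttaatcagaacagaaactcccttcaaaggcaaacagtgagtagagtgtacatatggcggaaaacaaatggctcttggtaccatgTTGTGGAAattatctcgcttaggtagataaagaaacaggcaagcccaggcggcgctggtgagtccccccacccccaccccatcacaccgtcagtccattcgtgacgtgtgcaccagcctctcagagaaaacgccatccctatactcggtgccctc
Cldn18 downstream start, chr9:99710064-99710313, minus strand: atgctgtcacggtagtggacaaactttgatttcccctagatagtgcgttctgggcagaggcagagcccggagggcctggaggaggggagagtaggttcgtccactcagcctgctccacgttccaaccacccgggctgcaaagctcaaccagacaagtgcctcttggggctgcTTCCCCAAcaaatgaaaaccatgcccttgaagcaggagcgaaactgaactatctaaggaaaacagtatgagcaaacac

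The Cldn4 window held 2 TGACTCA matches, at 240 to 234 and 158 to 152 bases before the start. Of 32851 mouse promoter windows of the same length, 6.75% held at least 1 match to TGANTCA and 0.338% held at least 2. The Cldn7 window held 1 GGAATG match, at 70 to 65 bases before the start, a motif present in 12.6% of windows. A window before another Cldn7 start, chr11:69965171-69965420, held none and is not printed. Each Cldn18 window held 1 match to TTNNGNAA, which 36.8% of windows also held. The Cldn3 window held none of the searched letters. No window of the 6 members with an entry held AACCNGTT (the GRHL motif, 1.79% of windows). No matches overlapped each other. These are matches of letters and not measured binding sites.

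In what follows a level is the summed UMIs of a gene per 10000 summed UMIs of the cells in a gate. Counts of 3′ ends do not grow with transcript length, so levels of different genes were set side by side without a length correction, although capture can differ between genes. A gene is called past 2-fold when the ratio of its levels in a pair of gates is at least 2 or at most 0.5 and its level reaches 0.1 in either gate. The gate genes themselves were left out. With no replicates this is a size rule and not a test.

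The 4 claudins made up 17.5 UMIs per 10000 in the ATII gate, 48.1 in the ATI gate and 43.7 in the keratin-high gate. Their mix differed. In the ATII gate Cldn3 gave 46.5% of the claudin UMIs, Cldn18 39.6%, Cldn7 13.6% and Cldn4 0.278%. In the ATI gate Cldn18 alone gave 66.5% and Cldn3 24.6%. In the keratin-high gate Cldn18 gave 44.9%, Cldn3 30.3%, Cldn7 14.98% and Cldn4 9.80%. Cldn3 was therefore the leading claudin in ATII-gated cells and Cldn18 in both other gates.

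**Figure D1:**
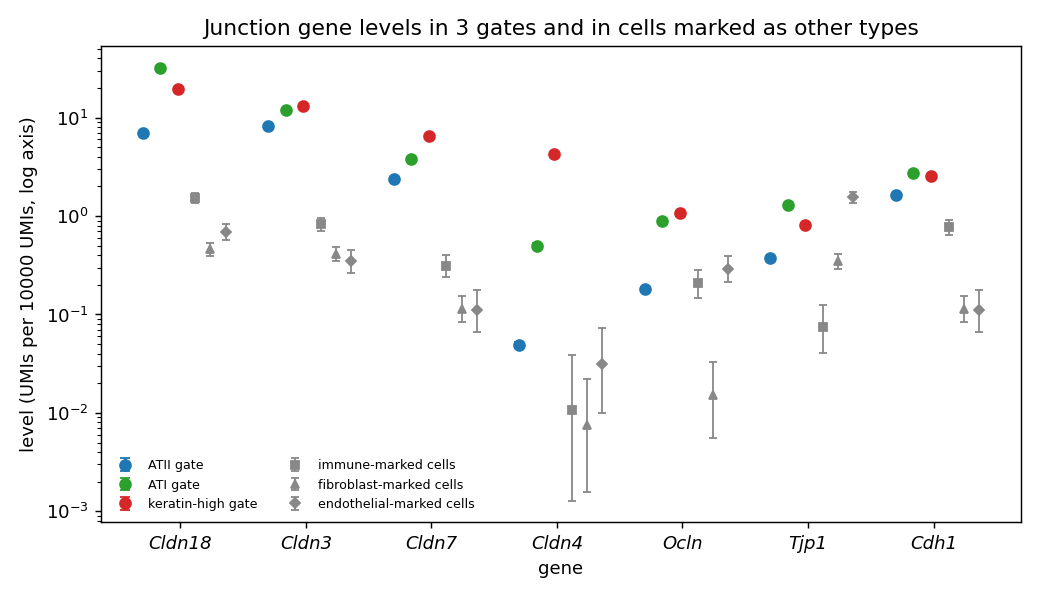
Level of each of the 7 genes (summed UMIs per 10000 UMIs, log axis) in the ATII, ATI and keratin-high gates, with the immune-, fibroblast- and endothelial-marked cells in grey. Bars are 95% Poisson intervals, often smaller than the points. Cldn4 spans the widest range, from 0.0487 in ATII to 4.28 in keratin-high, while Cldn18 peaks in the ATI gate at 32.0.

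Cldn4, a barrier-forming claudin, separated the keratin-high cells more than any other member. Its level was 0.0487 UMIs per 10000 (0.0454 to 0.0522, 787 UMIs) in the ATII gate, 0.496 (0.459 to 0.535, 662 UMIs) in the ATI gate and 4.28 (4.21 to 4.36, 13138 UMIs) in the keratin-high gate. The order of the gates was clear of counting error. Cldn4 was 87.9-fold higher in keratin-high than in ATII cells (interval 81.8 to 94.6), which placed it 20th of the 8363 genes tested. It was 10.2-fold higher in ATI than in ATII cells (9.17 to 11.3) and 8.64-fold higher in keratin-high than in ATI cells (7.99 to 9.35). With stricter gates, keratin-high was 216-fold over ATII and 28.0-fold over ATI cells. The keratin-high cells held 11.9% of the UMIs of all filtered cells but 73.7% of the Cldn4 UMIs.

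Cells that should lack Cldn4 were lower than the ATII gate. Their level was 0.0106 UMIs per 10000 in immune-marked cells (2 UMIs), 0.00760 in fibroblast-marked cells (3 UMIs) and 0.0311 in endothelial-marked cells (5 UMIs). The ATII interval lay above those of the immune-marked and fibroblast-marked cells (upper bounds 0.0384 and 0.0222) and overlapped that of the endothelial-marked cells (0.0101 to 0.0725). After each cell was thinned to 5000 UMIs, at least 1 Cldn4 UMI was seen in 1.88% of ATII cells (Clopper-Pearson interval 1.57 to 2.23, n = 6772), 16.8% of ATI cells (14.3 to 19.5, n = 841) and 62.3% of keratin-high cells (59.3 to 65.2, n = 1090). The thinning left out 1099 cells with fewer UMIs. At the same depth Cldn4 was seen in 0 of 72 immune-marked cells, which allows a share of up to 4.17%, in 0 of 184 fibroblast-marked cells, which allows up to 1.63%, and in 1.27% of 79 endothelial-marked cells (0.0320 to 6.85). The Clopper-Pearson upper bounds of the immune- and fibroblast-marked shares were 4.99% and 1.98%. The ATII share lay inside these intervals of all 3 types but above the limit of 3 counts for the fibroblast-marked cells, so its place against that type depends on the bound. Without thinning the shares were 6.55%, 30.8% and 81.2% in the ATII, ATI and keratin-high gates. The median depths of the immune-, fibroblast- and endothelial-marked cells were 23873, 15379 and 10049 UMIs.

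Within the keratin-high gate Cldn4 was spread unevenly. The median cell had 2.20 Cldn4 UMIs per 10000 and the 90th percentile cell 9.94, while the 10th percentile cell had 0. A group of 133 cells, 11.2% of the gate, held 50% of its Cldn4 UMIs. In the other gates, where Cldn4 was lower, fewer cells held 50%: 103 cells (1.48%) in ATII and 61 cells (6.38%) in ATI.

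Cldn18, the claudin typical of ATI cells, was the most abundant member in the ATI and keratin-high gates. Its level was 6.94 UMIs per 10000 (6.90 to 6.98) in ATII cells, 32.0 (31.7 to 32.3) in ATI cells and 19.6 (19.5 to 19.8) in keratin-high cells. The ATI cells were the highest and the ATII cells the lowest, with no overlap of intervals. It was 4.61-fold higher in ATI than in ATII cells and 2.83-fold higher in keratin-high than in ATII cells. The keratin-high level was 0.614 of the ATI level (0.606 to 0.621). Per cell, the 10th percentile, median and 90th percentile were 2.12, 5.97 and 12.03 UMIs per 10000 in the ATII gate, 13.7, 30.5 and 55.9 in the ATI gate and 4.19, 16.8 and 46.0 in the keratin-high gate, so the keratin-high cells reached from the range of the ATII gate into that of the ATI gate. In the cells marked as other types Cldn18 stood at 1.52 UMIs per 10000 (immune), 0.458 (fibroblast) and 0.696 (endothelial), well below all 3 gates. Gm16004 is annotated on the opposite strand across Cldn18.

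Cldn3 differed least among the claudins. Its level was 8.15 UMIs per 10000 (8.10 to 8.19) in ATII, 11.8 (11.65 to 12.02) in ATI and 13.3 (13.1 to 13.4) in keratin-high cells. The ratios were 1.45 for ATI over ATII, 1.63 for keratin-high over ATII and 1.12 for keratin-high over ATI, so the gates were ordered beyond counting error but none of the differences was past 2-fold. Almost every gated cell held it: thinned shares were 95.7%, 98.5% and 99.1%, against 11.1% of immune-marked, 5.98% of fibroblast-marked and 6.33% of endothelial-marked cells. Wbscr25 is annotated on the opposite strand across Cldn3.

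Cldn7, a claudin found along the lateral membrane as well as at the junction, followed the same order as Cldn4 with smaller steps. Its level was 2.38 UMIs per 10000 (2.36 to 2.40) in ATII, 3.78 (3.68 to 3.89) in ATI and 6.55 (6.46 to 6.64) in keratin-high cells. It was 2.75-fold higher in keratin-high than in ATII cells, while ATI over ATII was 1.59 and keratin-high over ATI was 1.73 (1.68 to 1.79). Thinned shares were 64.5%, 78.8% and 92.5%, against 8.33%, 2.17% and 5.06% in the immune-, fibroblast- and endothelial-marked cells.

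**Figure D2:**
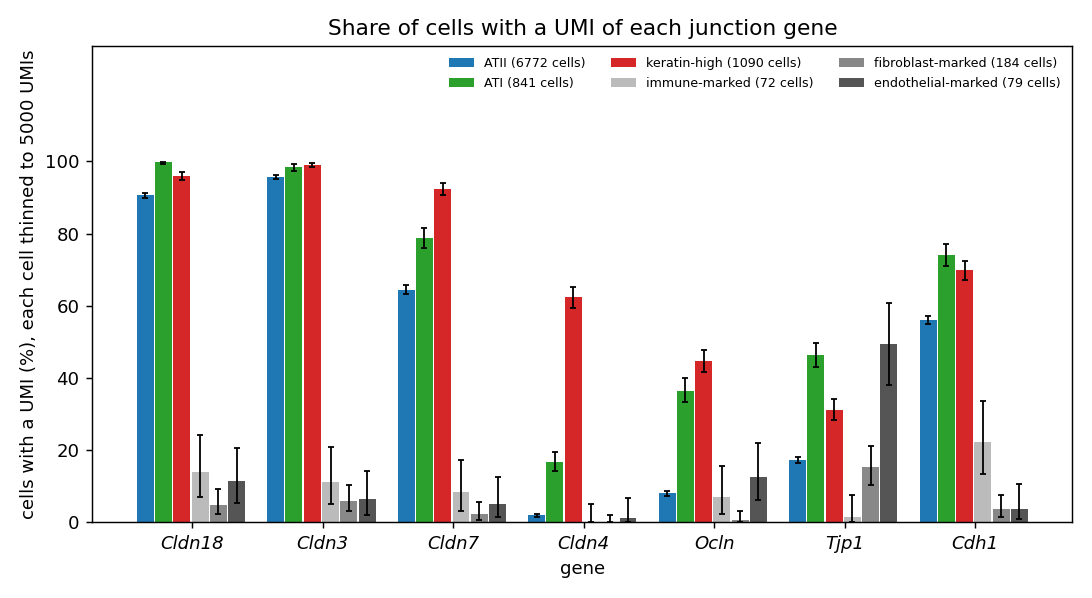
Percent of cells with at least 1 UMI of each gene after every cell was thinned to 5000 UMIs (bars from 0, with 95% Clopper-Pearson intervals), by gate. Cldn4 was seen in 1.88% of ATII, 16.8% of ATI and 62.3% of keratin-high cells, whereas Cldn3 was seen in over 95% of cells of each gate.

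Joint detection showed the same order. After thinning to 5000 UMIs, all 4 claudins were seen in the same cell in 1.28% of ATII cells, 13.7% of ATI cells and 56.1% of keratin-high cells (53.0 to 59.0). Exactly 3 of the 4 were seen in 55.8%, 67.2% and 38.3%. Among keratin-high cells, Ocln was seen in 49.3% of those with Cldn4 (45.5 to 53.2) and 37.0% of those without (32.3 to 41.9). For the other 5 genes the intervals of both shares overlapped: Cldn7 was seen in 94.0% and 90.02%, Cldn18 in 96.0% and 96.1%, Cldn3 in 99.4% and 98.5%, Tjp1 in 32.5% and 29.0%, and Cdh1 in 71.3% and 67.4%.

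Ocln, which encodes occludin, was at 0.181 UMIs per 10000 (0.174 to 0.187) in ATII, 0.891 (0.841 to 0.943) in ATI and 1.09 (1.05 to 1.12) in keratin-high cells. It was 6.01-fold higher in keratin-high than in ATII cells (5.71 to 6.31), the second largest ratio among the members. It was 4.93-fold higher in ATI than in ATII cells (4.61 to 5.28), an interval that overlaps that of Cldn18 (4.56 to 4.66). Keratin-high over ATI was 1.22. The level in ATII cells was no higher than in immune-marked (0.207) or endothelial-marked cells (0.292) but above that in fibroblast-marked cells (0.0152, interval 0.00558 to 0.0331). The thinned share in ATII cells, 8.004%, likewise lay near the 6.94% of immune-marked and below the 12.7% of endothelial-marked cells, and above the 0.543% (0.0138 to 2.99) of fibroblast-marked cells, against 36.5% in ATI and 44.7% in keratin-high cells.

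Tjp1, the ZO-1 scaffold gene, was, like Cldn18, highest in the ATI gate. It stood at 0.374 UMIs per 10000 (0.365 to 0.384) in ATII, 1.31 (1.25 to 1.37) in ATI and 0.813 (0.781 to 0.845) in keratin-high cells. It was 3.49-fold higher in ATI and 2.17-fold higher in keratin-high than in ATII cells, and keratin-high over ATI was 0.622 (0.585 to 0.662). ZO-1 is not restricted to epithelium. The endothelial-marked cells had 1.55 UMIs per 10000 and the fibroblast-marked cells 0.347, close to the ATII level.

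Cdh1, which encodes E-cadherin, differed little. It was at 1.62 UMIs per 10000 (1.60 to 1.64) in ATII, 2.71 (2.62 to 2.80) in ATI and 2.58 (2.53 to 2.64) in keratin-high cells, and the intervals of the last pair overlapped, while their ratio, keratin-high over ATI, was 0.953 (0.916 to 0.992). ATI over ATII was 1.67 and keratin-high over ATII 1.59, neither past 2-fold. Its level was 0.770 in immune-marked cells, and 0.114 and 0.112 in fibroblast- and endothelial-marked cells.

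Counted together, 5 of the 7 members (Cldn4, Ocln, Cldn18, Cldn7 and Tjp1) were past 2-fold higher in keratin-high than in ATII cells, and 0 lower, where 14.5% of the 8363 tested genes were higher and 5.15% lower. The median ratio of the members was 2.75 and that of all tested genes 1.31. For ATI over ATII, 4 of 7 (Cldn4, Ocln, Cldn18 and Tjp1) were past 2-fold higher and 0 lower, against 11.5% and 5.52% of 8303 genes, with a median of 3.49 against 1.30. For keratin-high over ATI, only Cldn4 was past 2-fold, against 6.21% of 8454 genes higher and 4.15% lower, with medians of 1.12 and 1.01. Sftpc alone took 15.5% of the UMIs in the ATII gate, 4.75% in the ATI gate and 1.92% in the keratin-high gate, which lowers the level of every other gene most in ATII cells. With the surfactant and gate genes out of the total, Tjp1 was 1.83-fold higher in keratin-high than in ATII cells and the count there was 4 of 7. The genes called then split into 784 higher and 618 lower, in place of 1212 and 431. When each ratio was divided by that of the median gene, the split was 634 higher and 694 lower, Tjp1 was at 1.66 and the member count was again 4 of 7. For ATI over ATII the same steps turned 955 higher and 458 lower genes into 673 and 602, and into 532 and 714.

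The gates are cuts through continuous values, and Cldn4 and Cldn18 were already well above their ATII levels just outside them. Cells with 40 to 50 keratin UMIs per 10000 (383 cells), just outside the keratin-high gate, had Cldn4 at 1.73 UMIs per 10000 (1.65 to 1.82). Cells with 50 to 60 (293 cells), just inside, had it at 2.43 (2.32 to 2.55). The corresponding Cldn18 levels were 19.7 and 20.1. Cells with 12 to 15 Hopx UMIs per 10000 (161 cells), just outside the ATI gate, had Cldn18 at 23.0 (22.4 to 23.5). Cells with 15 to 18 (125 cells), just inside, had it at 26.4 (25.7 to 27.1). Cdh1 (2.33 and 2.81) and Cldn3 (11.9 and 13.1) also had separate intervals there. Those of Cldn4, Cldn7, Ocln and Tjp1 overlapped.

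Over 5 ranges of the keratin level (under 10, 10 to 25, 25 to 50, 50 to 100, and 100 or more UMIs per 10000) Cldn4 stood at 0.0244, 0.155, 1.03, 3.47 and 6.12 UMIs per 10000. It was higher at every step. Cldn7 also climbed through all 5, from 1.95 to 7.64, and Ocln from 0.156 to 1.29. Cldn3 levelled off, at 7.01, 9.72, 11.9, 13.3 and 13.2. Cldn18 went from 6.83 to 20.6, with most of the difference below 50 keratin UMIs, where it had reached 17.9. Tjp1 ran from 0.409 to 0.866 and Cdh1 from 1.57 to 2.97.

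**Figure D3:**
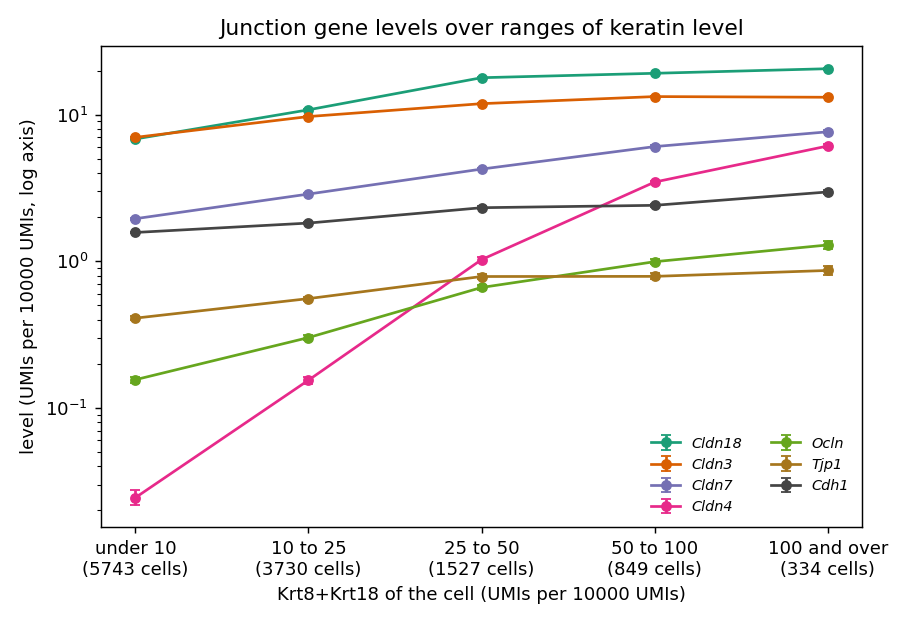
Level of each gene (summed UMIs per 10000 UMIs, log axis) over 5 ranges of the Krt8 plus Krt18 level of the cells, with 95% Poisson intervals. Cldn4 climbs from 0.0244 to 6.12, while Cldn3 is at 13.3 and 13.2 in the last pair of ranges.

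When the keratin ranges were split further by Hopx, Cldn4 and Cldn18 parted. Among cells with 50 to 100 keratin UMIs per 10000, Cldn4 was 3.94, 3.19 and 1.62 UMIs per 10000 in cells with Hopx under 2, from 2 to 15, and 15 or more. Cldn18 in the same cells was 12.03, 26.3 and 34.9. Cldn4 was thus lowest and Cldn18 highest in the cells with most Hopx. At fewer than 10 keratin UMIs the order of Cldn4 was the opposite, 0.0186 (0.0161 to 0.0214), 0.0685 (0.0534 to 0.0865) and 0.124 (0.0755 to 0.191). The intervals of the last pair overlap, and 0.0186 lay inside those of the immune-, fibroblast- and endothelial-marked cells. Cldn18 kept its order there at 6.11, 10.8 and 28.3. In the whole keratin-high gate the 620 cells with Hopx under 2 had 4.84 Cldn4 UMIs per 10000, the 436 cells from 2 to 15 had 3.81 and the 127 cells with 15 or more had 1.99. Cldn7 had the same order as Cldn4 there, at 6.91, 6.28 and 4.85, and Cldn3 differed little, at 12.6, 14.1 and 14.6.

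**Figure D4:**
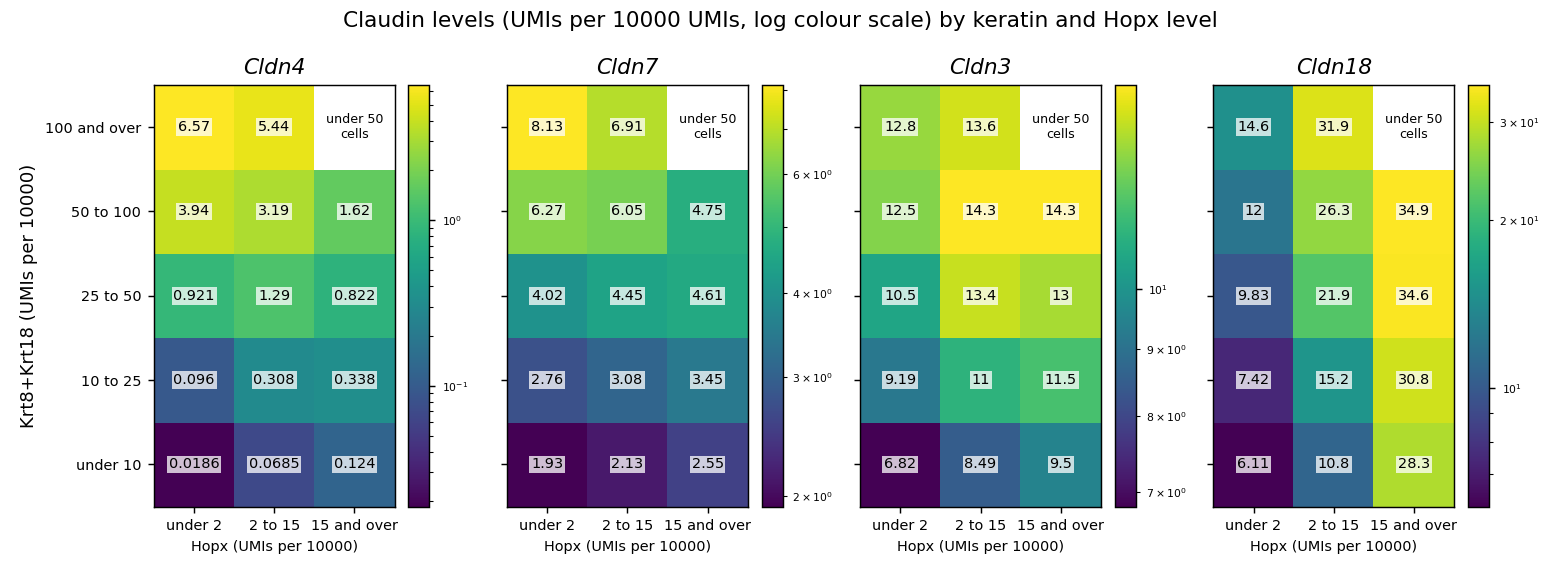
Levels of Cldn4, Cldn7, Cldn3 and Cldn18 (summed UMIs per 10000 UMIs, log colour scale) in cells split by keratin level and by Hopx level. Cldn4 is lowest, at 0.0186, with few keratin UMIs and Hopx under 2, and highest, at 6.57, with 100 or more keratin UMIs and Hopx under 2. Cldn18 climbs with Hopx in every keratin range.

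These 14 combinations of keratin and Hopx (a combination with too few cells was left out) also gave the likeness of patterns, as Pearson's r of log2(level + 0.01). The strata share libraries and were cut on the same genes, so r is a description. Among members, Cldn4 and Cldn7 were most alike (r = 0.987), followed by Ocln with Cdh1 (0.958) and Cldn18 with Tjp1 (0.929). Cldn3 had r = 0.914 with Ocln. Cldn4 and Tjp1 (0.395) and Cldn7 and Tjp1 (0.366) were much less alike.

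Of 8044 genes compared over the strata, the 3 most like Cldn4 were Tnfrsf12a (r = 0.992), the receptor of the cytokine TWEAK, Mboat1 (0.991), an acyltransferase of lipids, and Ptp4a2 (0.991), a phosphatase. Those most like Cldn18 were Slc6a14 (0.991), an amino acid transporter, Tspan2 (0.991), a tetraspanin, and Pdlim3 (0.990), an actin-associated protein. For Cldn7 they were Rnh1 (0.992), the ribonuclease inhibitor, Anxa1 (0.991), an annexin, and Gipc1 (0.991), an adaptor protein. For Cldn3 they were Eif3b (0.981), a translation initiation factor, Spint1 (0.979), an inhibitor of epithelial serine proteases, and Dapp1 (0.979), a signalling adaptor. For Ocln they were Pls3 (0.994), an actin bundler, Tmem43 (0.993) and Cops5 (0.991), a subunit of the COP9 signalosome. For Tjp1 they were Cdk14 (0.979), a kinase, Agrn (0.979), the basement membrane proteoglycan agrin, and Myo1e (0.978), an unconventional myosin. For Cdh1 they were Exoc7 (0.983), of the exocyst, Flot1 (0.982), a flotillin, and Prkcd (0.9803), protein kinase C delta. The choice of names depends on the pseudocount: with 0.1 in place of 0.01, 12 of the 21 names were shared, and 0 of 3 for Cldn4.

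The members belong to larger sets of junction genes. Of 24 tested tight junction genes other than the members, 9 were past 2-fold higher in keratin-high than in ATII cells and 0 lower, beside 14.5% higher and 5.15% lower of all tested genes, and the median ratio was 1.67 beside 1.31. Relative to the median gene, 4 were higher and 0 lower, beside 634 higher and 694 lower of 8363 genes. The 9 included the polarity genes Mpp5 (2.98), Pard6b (2.78) and Prkci (2.15), Ybx3 (2.77), which encodes a partner of ZO-1, the genes of tricellular junctions Marveld2 (2.54) and Lsr (2.38), the adhesion molecule gene F11r (2.35) and Tjap1 (2.22). The most abundant gene of the list, the polarity gene Crb3, stood at 1.48, 2.03 and 2.74 UMIs per 10000 in ATII, ATI and keratin-high cells. In ATI over ATII cells, 12 of the 24 were higher and 0 lower, beside 11.5% and 5.52% of all genes and with a median of 2.00. Relative to the median gene, 5 were higher and 0 lower, beside 532 higher and 714 lower of 8303 genes. The 12 were led by the scaffold genes Magi1 (4.76) and Magi3 (4.61). The others included Pard6b (3.86), Mpp5 (3.48), Tjap1 (2.71), Prkci (2.57), Cgn (2.43), which encodes cingulin, F11r (2.29) and the polarity gene Patj (2.24). Magi1 and Magi3 were the 2 of 24 that were past 2-fold lower in keratin-high than in ATI cells, with ratios of 0.309 and 0.342, and 0 were higher, beside 4.15% lower and 6.21% higher of all genes.

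Desmosomes, which anchor keratin filaments between cells, showed 5 of 7 tested genes past 2-fold higher in keratin-high than in ATII cells and 0 lower, beside 14.5% and 5.15% of all genes. They were the plakophilin genes Pkp3 (3.81) and Pkp2 (2.25), the plakin genes Evpl (3.77) and Dsp (3.03), and Perp (2.76). Relative to the median gene 4 were, without Pkp2, beside 634 higher and 694 lower of 8363 genes. In ATI over ATII cells 4 of the 7 were higher, beside 11.5% of all genes, namely Pkp2 (3.61), Evpl (3.33), Pkp3 (2.15) and Dsp (2.08). Relative to the median gene Pkp2 and Evpl also were, beside 532 higher and 714 lower of 8303 genes. Perp alone of the 7 was past 2-fold in keratin-high over ATI cells, at 2.29, beside 6.21% higher and 4.15% lower of all genes. The highest level in the list was that of Pkp2 in ATI cells, 1.17 UMIs per 10000.

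Of 15 tested adherens junction genes other than Cdh1, 5 were past 2-fold higher and 1 lower in keratin-high than in ATII cells, beside 14.5% and 5.15% of all genes. The higher genes were Cdh13 (31.3, from 0.0105 to 0.329 UMIs per 10000), an unusual cadherin anchored by a lipid, Vcl (3.65), which encodes vinculin, the catenin genes Ctnna1 (2.98) and Ctnnd1 (2.52), and Nectin3 (2.15), of which Ctnnd1 and Nectin3 were not past 2-fold relative to the median gene. Nectin1 was lower, with a ratio of 0.203. In ATI over ATII cells Cdh13 (29.3), Nectin3 (4.12), Vcl (3.42) and Ctnna1 (3.02) were higher and Nectin1 (0.363) lower, beside 11.5% and 5.52% of all genes. Ctnnb1, the gene of the E-cadherin partner beta-catenin and the most abundant of the list, stood at 3.77, 5.40 and 6.48 UMIs per 10000 in ATII, ATI and keratin-high cells. Nectin4 (2.24) and Lima1 (2.09), an actin-binding partner of the catenins, were the 2 of 15 past 2-fold higher in keratin-high than in ATI cells, and 0 were lower, beside 6.21% and 4.15% of all genes.

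Among 15 tested regulators and partners of epithelial junctions, 5 were past 2-fold higher and 1 lower in keratin-high than in ATII cells, beside 14.5% and 5.15% of all genes. Relative to the median gene 2 were higher, Epcam and Vim, and 1 lower, beside 634 higher and 694 lower of 8363 genes. Epcam, whose product binds claudin-7, stood at 3.62 UMIs per 10000 in ATII and 10.7 in keratin-high cells, a ratio of 2.95. The protease gene St14 had a ratio of 2.37 and the transcription factor gene Ovol2 2.20. Vim, the mesenchymal filament gene vimentin, had a ratio of 5.90, with the fibroblast markers at a summed 0.1004 UMIs per 10000 in keratin-high and 0.270 in ATII cells. Ehf, an epithelial transcription factor gene, was lower, at 0.416. In ATI over ATII cells Ovol2 (2.42) was higher and Ovol1 (0.427) and Ehf (0.124) lower, and relative to the median gene 0 of 14 were higher and 3 lower. Of all genes in that comparison 11.5% were higher and 5.52% lower, or 532 and 714 of 8303 genes relative to the median gene. In keratin-high over ATI cells 3 of 14, Vim (6.38), Ehf (3.34) and Epcam (2.11), were higher and 0 lower, beside 6.21% and 4.15% of all genes. Of 19 other claudin genes in the matrix only Cldn23 reached the level minimum in any of the 3 gates, at 0.125 UMIs per 10000 in keratin-high and 0.0071 in ATII cells, a ratio of 17.6. Cldn23 was named after its values were seen.

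The trap reporter gave a second split of the cells. GFP-positive cells had at least 1 GFP UMI and no Stk11 UMI (3360 cells), and Stk11-positive cells the reverse (3367 cells). A further 29 cells had both and 5427 had neither. These classes are set by detected transcripts and are not the Restored and NonRestored mice. Their median depths were 24516.5 and 23635 UMIs. Over all such cells every member was lower in the Stk11-positive cells. Cldn4 was 1.12 UMIs per 10000 in GFP-positive and 0.469 in Stk11-positive cells, a ratio of 0.418 (0.403 to 0.433). The other ratios were 0.608 for Ocln, 0.638 for Cldn7, 0.738 for Cldn3, 0.785 for Cdh1, 0.794 for Cldn18 and 0.800 for Tjp1. Cldn4 alone was past 2-fold, where 2.58% of 8073 tested genes were lower and 1.37% higher, and the member median was 0.738 against 0.858 over all tested genes. Divided by the median gene, the 111 higher and 208 lower genes became 150 and 138, and Cldn4 was still the 1 member past 2-fold. Of the 24 other tight junction genes, 0 were past 2-fold in either direction, and 0 of 6 desmosome genes were. Of 15 adherens junction genes 1 was past 2-fold lower, and of 13 regulators 1 was past 2-fold higher.

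The classes differed in their make-up. Of the GFP-positive cells, 51.8% were in the ATII gate, 7.20% in the ATI gate and 19.1% (17.8 to 20.5) in the keratin-high gate, and of the Stk11-positive cells 69.9%, 7.90% and 4.90% (4.20 to 5.68). Cells with at least 5 UMIs per 10000 of immune, fibroblast and endothelial markers together were counted, a wider rule than that of the marked cells. They numbered 91 among the Stk11-positive and 14 among the GFP-positive cells. The summed level of the fibroblast markers was 7.95 UMIs per 10000 in Stk11-positive and 0.211 in GFP-positive cells. These values were computed after the ratios were seen. The classes also differed in keratin within gates. It was 14.5 UMIs per 10000 in GFP-positive and 8.11 in Stk11-positive cells of the ATII gate, and 25.9 and 19.4 in the ATI gate. Its part in the ratios within gates was not tested. The member values within each gate follow.

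Within the ATII gate (1742 GFP-positive and 2353 Stk11-positive cells) all 7 ratios of Stk11-positive over GFP-positive cells were below 1, from 0.560 for Cldn4 (0.471 to 0.665, a gene there below the level minimum) to 0.900 for Cdh1. The median ratio of all tested genes there was also below 1, at 0.883. Relative to the median gene Cldn4 was at 0.634, Ocln at 0.759, Cldn7 at 0.830 and Cldn3 at 0.889. Cldn18 was at 0.947, Tjp1 at 0.976 and Cdh1 at 1.02. None of the 6 members above the minimum was past 2-fold, and 2.49% of all tested genes were, 42 higher and 150 lower, or 68 and 102 relative to the median gene. Within the ATI gate (242 and 266 cells) Cldn4 had a ratio of 0.562 (0.460 to 0.684) and Cldn18 1.16 (1.13 to 1.19), and again 0 of 7 were past 2-fold, against 2.59% of genes, 88 higher and 126 lower, or 117 and 89 relative to the median gene.

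Within the keratin-high gate (642 GFP-positive and 165 Stk11-positive cells) the direction for Cldn4 was the opposite. Its level was 3.93 UMIs per 10000 in GFP-positive and 6.10 in Stk11-positive cells, a ratio of 1.55 (1.49 to 1.62). Cldn18 was likewise higher in the Stk11-positive cells, 26.2 against 17.6, a ratio of 1.49 (1.46 to 1.52), and Ocln had 1.41 (1.29 to 1.54). Tjp1 was at 1.19, Cldn7 at 1.07, Cdh1 at 0.991 (0.929 to 1.06) and Cldn3 at 0.889. None of the 7 was past 2-fold, and 4.79% of all tested genes were. Keratin itself was 93.8 UMIs per 10000 in the GFP-positive and 84.4 in the Stk11-positive cells of this gate, and Hopx 3.56 and 5.16. With 165 Stk11-positive cells and no map to mice, a difference between the classes and a difference between mice or clones cannot be told apart.

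By keratin range the ratio of Stk11-positive over GFP-positive cells for Cldn4 was 0.465 (0.346 to 0.629) below 10 keratin UMIs, 1.03 from 10 to 25, 1.67 (1.53 to 1.82) from 25 to 50, 1.77 (1.68 to 1.87) from 50 to 100 and 1.41 (1.30 to 1.52) at 100 or more. At the same ranges Cldn18 had 0.846, 1.07, 1.64, 1.43 and 1.72, and Ocln 0.820, 1.07, 1.37, 1.40 and 1.57. Cldn3 stayed below 1 throughout, from 0.810 to 0.986, and Cdh1 ran between 0.834 and 1.01. Cldn4 was thus higher in Stk11-positive cells wherever keratin reached 25, although the pooled ratio was below 1. The top range held 36 Stk11-positive and 190 GFP-positive cells, and the lowest 2163 and 793. The share of cells with Cldn4 after thinning was 20.2% of GFP-positive and 7.31% of Stk11-positive cells, and within the keratin-high gate 61.7% (57.8 to 65.5) and 68.7% (60.99 to 75.74), intervals that overlap. Without thinning the shares in that gate were 86.6% and 87.9%. Among junction genes outside the members, Cldn6, named after its values were seen, had the widest difference within the keratin-high gate, at 0.0282 UMIs per 10000 in GFP-positive and 0.166 in Stk11-positive cells.

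**Figure D5:**
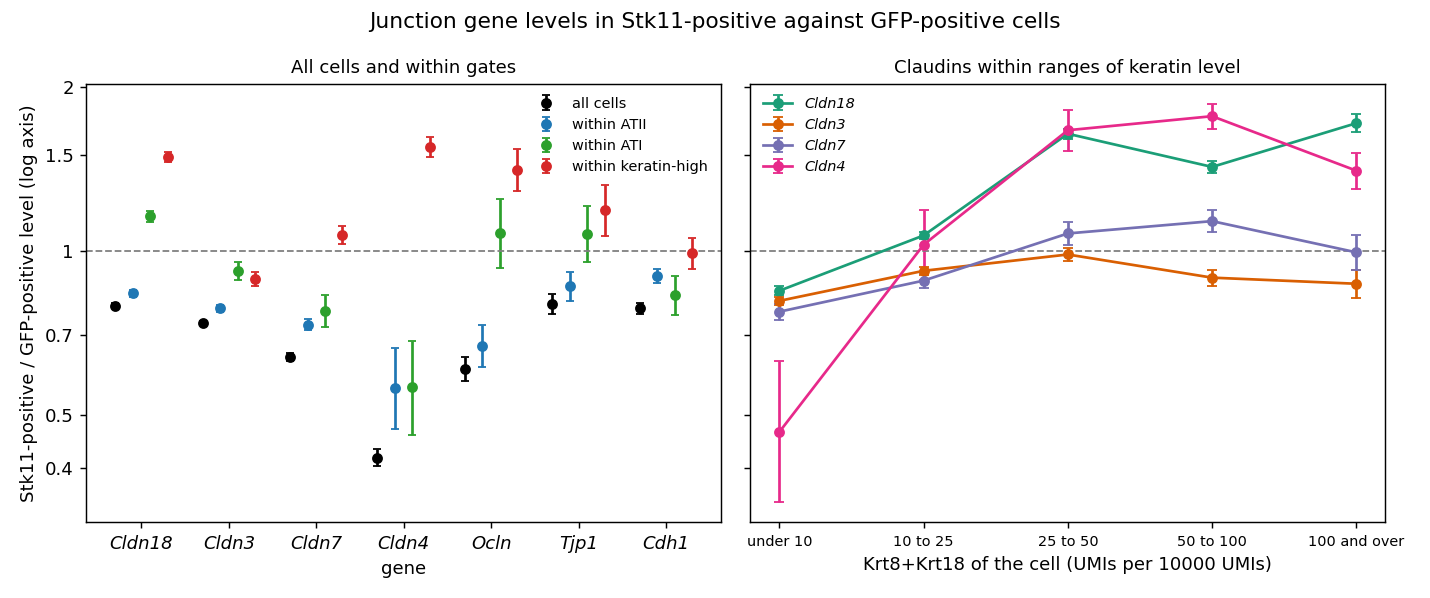
Ratio of the level in Stk11-positive over GFP-positive cells (log axis, 1 means equal) for the 7 genes over all cells and within each gate (left) and for the claudins by keratin range (right), with 95% counting intervals. For Cldn4 the ratio is 0.418 over all cells and 1.55 within the keratin-high gate.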

How the data were processed

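Single-cell 3′ RNA sequencing of sorted tumour cells from 6 mice was deposited as 1 matrix of UMI counts. The authors aligned reads to mm10 and counted UMIs per gene with Cell Ranger v3.0.2, and the deposited counts are not normalized. Cells with at least 500 genes and at most 20% mitochondrial UMIs were kept, 12183 of 16017 (2081 had too few genes and 1753 too many mitochondrial UMIs). Doublets were not removed. Counts were summed per gate and divided by the summed UMIs. Intervals (95%) were exact Poisson for levels, Clopper-Pearson for shares and, for a ratio, the exact binomial interval conditional on the sum of both counts. For shares, each cell was thinned to 5000 UMIs with a fixed seed. PCR duplicates are collapsed in UMIs, and the intervals cover counting error only. No test was run, since cells are not replicates and no map from cells to mice was used. Named genes outside the 7 members were those of fixed junction gene lists past 2-fold between gates (at most 10 per list and comparison), the most abundant gene of each list and the 3 genes most like each member. A few items that this rule or the labels would name are not reported here, though counts include them. Members, gates and lists were chosen with earlier results of these data known. The ratio computation was tested on simulated data. Promoters were taken from RefSeq (GRCm38.p6) and gene positions from GENCODE M21 (7 of 7 IDs matched). The tools were matplotlib 3.10.9, scipy 1.17.1, pandas 2.3.3 and numpy 2.4.6 in Python 3.11.15. Alternatives covered cell filters, weighting, scaling, thinning, stricter gates, the level minimum and the UMI minimum for GFP or Stk11.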

Additional observations from a re-analysis of the deposited data

How the results depend on the processing

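Of 462 ratios of members under alternative settings, 452 kept their direction and 10 did not, none of them of a member past 2-fold in that comparison. Of the 10, 7 were ratios of Cdh1 that moved to values between 1.00 and 1.12, and the others were Cldn7 at 0.995 within the keratin-high gate with stricter gates, and Ocln at 0.909 and Tjp1 at 0.975 within the ATI gate when at least 2 GFP or Stk11 UMIs were asked for. Stricter gates made 2 members in place of 1 past 2-fold in keratin-high over ATI cells (Cldn7, at 2.37, joined Cldn4) and 1 in place of 0 between GFP-positive and Stk11-positive cells within the ATI gate (Cldn4, at 0.419). Thinning to 5000 UMIs also gave 1 there (Cldn4, at 0.497). The size of the Cldn4 difference varied: keratin-high over ATII ranged from 67.3 (relative to the median gene) to 216 (stricter gates) and keratin-high over ATI from 7.67 (each cell weighted equally) to 28.0 (stricter gates). With a level minimum of 0.3 in place of 0.1, fewer genes could be called. The genes past 2-fold were then 1080 in place of 1643 for keratin-high over ATII, 920 in place of 1413 for ATI over ATII, 539 in place of 876 for keratin-high over ATI and 153 in place of 319 for Stk11-positive over GFP-positive cells. Within the ATII, ATI and keratin-high gates they were 87 in place of 192, 84 in place of 214 and 173 in place of 400. The share of cells with Cldn4 followed depth, from 0.923%, 8.62% and 43.4% of ATII, ATI and keratin-high cells at 2000 UMIs to 3.39%, 26.6% and 78.4% at 10000. No paired analysis was made, since cells were not tied to mice here and no test was run. Depth limits the low genes most: Cldn4 in ATII cells rests on 787 UMIs over 6975 cells, with an interval that overlaps that of the endothelial-marked cells.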
